A study of Drosophila melanogaster with 4 samples.

Results

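The regions described here are RPD3-enriched regions inside chromosome arm 2L of Drosophila melanogaster, the left arm of the second chromosome. They were taken from the deposited lists as all enriched regions on 2L whose midpoint lay from 1 to 21 Mb, in FlyBase release 5 coordinates counted from 1. These limits leave out the telomere-side end and the centromere-side end of the arm and keep 20.0 Mb, or 86.9% of its sequence. ChIP replicate 1 had 947 such regions of 7041 in its list (13.4%), replicate 2 had 1028 of 7654 (13.4%), and the series-wide list, referred to as the combined list, had 2641 of 19364 (13.6%). The choice used position only, and neither widths nor scores entered it. The stretches at 6 to 7 Mb and 17 to 18 Mb were singled out because earlier counts of these lists were high and low there, so their counts are a description and carry no test.

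The material was whole embryos of the wild-type strain Oregon-R (Oregon-R-modENCODE) aged 14 to 16 h, crosslinked with formaldehyde. There were 2 ChIP libraries made with an antibody against RPD3 named Q3451 and 2 input libraries, each input named as the control of 1 ChIP list. No other genotype, stage or treatment was compared, and the files held values for the ChIP lists alone. Whether the replicates are separate embryo collections is not stated in the labels, and an SD over n = 2 may therefore reflect technical spread.

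RPD3 is a histone deacetylase, the fly orthologue of mammalian HDAC1 and HDAC2. It removes acetyl groups from histone tails and works inside complexes with partners such as Sin3A, Mi-2 and CoREST, which are brought to DNA by other proteins. RPD3 acts with the co-repressor Groucho in the patterning of the early embryo, and histone deacetylases are also found at genes that are being transcribed. A ChIP region from whole embryos averages over all tissues, so binding in fewer cells and weaker binding in each cell cannot be told apart. Genes and DNA sequence at the positions below were not analysed here.

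Inside 2L the replicates had 47.4 and 51.4 regions per Mb, a mean of 49.4 ± 2.86 (SD, n = 2). These regions covered 10.7% of the 20.0 Mb in replicate 1 and 12.4% in replicate 2. In the combined list the density was 132.05 per Mb and the covered share 27.9%. Region number and coverage both depend on a sequencing depth and a calling threshold that are unknown, so the combined list and the replicate lists cannot be compared as amounts of binding.

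The first comparison asked whether the inside of 2L carried fewer regions than the inside of the other large arms, cut the same way at 1 Mb from the start and 2 Mb from the end. Replicate 1 had a mean of 47.4 ± 16.6 regions per 1-Mb interval on 2L (SD, n = 20 intervals) and 60.3 ± 17.8 on 2R, 3L, 3R and X (SD, n = 82 intervals). In replicate 2 the means were 51.4 ± 17.5 and 65.9 ± 18.9. The other arms differed among themselves, with means in replicate 1 of 54.0 on 3L, 56.3 on X, 60.3 on 3R and 71.9 on 2R, and in replicate 2 of 57.3, 63.9, 67.8 and 75.7 in the same order. The mean of 2L was below each of them, and in replicate 1 it lay nearer to 3L than 3L lay to 2R. On both sides the spread between intervals was large beside the difference of the means, and the ranges overlapped. In a quasi-Poisson regression over all intervals, which takes that spread into account, the ratio of 2L to the other arms was 0.79 in replicate 1 (95% interval 0.67 to 0.92, two-sided p = 0.004, adjusted p = 0.004, n = 102 intervals). The ratio in replicate 2 was 0.78 (95% interval 0.67 to 0.91, p = 0.0023, adjusted p = 0.0035, n = 102 intervals). For the combined list it was 0.83 (95% interval 0.75 to 0.92, p = 0.00049, adjusted p = 0.0015, n = 102 intervals). The adjustment was by Benjamini-Hochberg over the 3 lists, which are not independent of each other. Without the interval at 17 to 18 Mb, left out after its count was seen, the ratios were 0.82, 0.81 and 0.86 (adjusted p = 0.014, 0.013 and 0.0075, n = 101 intervals). Neighbouring intervals are not independent either, and the p-values describe these libraries. They take intervals and not arms as units: with 1 arm against 4, an exact one-sided permutation over arms cannot go below p = 0.2.

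The lower density was not spread evenly along the arm. From 1 to 7 Mb replicate 1 had 63.2 regions per Mb and replicate 2 had 67.7. From 7 to 14 Mb the densities were 43.6 and 50.6 per Mb, and from 14 to 21 Mb they were 37.6 and 38.3 per Mb. These stretches include the intervals singled out for their counts. Without 6 to 7 and 17 to 18 Mb the densities of the 3 stretches were 58.6, 43.6 and 42.2 per Mb in replicate 1, so its second step down rested mainly on 17 to 18 Mb. In replicate 2 they were 62.0, 50.6 and 42.7 per Mb, and in the combined list the last stretch then stood above the middle one, with 127.8 against 122.9 per Mb. With all intervals the covered share also fell along the arm, with 14.7%, 9.98% and 7.93% in replicate 1 and 16.96%, 12.1% and 8.84% in replicate 2. Median scores of these stretches stayed between 0.76 and 0.78 in replicate 1 and between 0.75 and 0.78 in replicate 2.

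Single intervals of replicate 1 ran from 10 to 86 regions, with a median of 47.0. Those of replicate 2 had a lowest count of 12, a median of 52.0 and a highest count of 96. The telomere-side part was even. Replicate 1 had 51, 63, 60, 58 and 61 regions in the 5 intervals from 1 to 6 Mb, and replicate 2 had 64, 65, 55, 59 and 67. Both then reached their highest count at 6 to 7 Mb, with 86 and 96. The next interval, 7 to 8 Mb, held 40 and 49. From 8 to 13 Mb the counts lay between 34 and 47 in replicate 1 and between 43 and 60 in replicate 2. The interval from 13 to 14 Mb rose above its neighbours, with 59 and 57. It was followed by a run of low intervals, in which 14 to 15 Mb had 32 regions in each replicate, 15 to 16 Mb had 26 in each, and 16 to 17 Mb had 39 and 45. The interval from 17 to 18 Mb had 10 and 12. Past it the counts recovered to 41 and 46, then to 64 in each replicate at 19 to 20 Mb, and ended with 51 and 43 at 20 to 21 Mb.

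**Figure D1:**
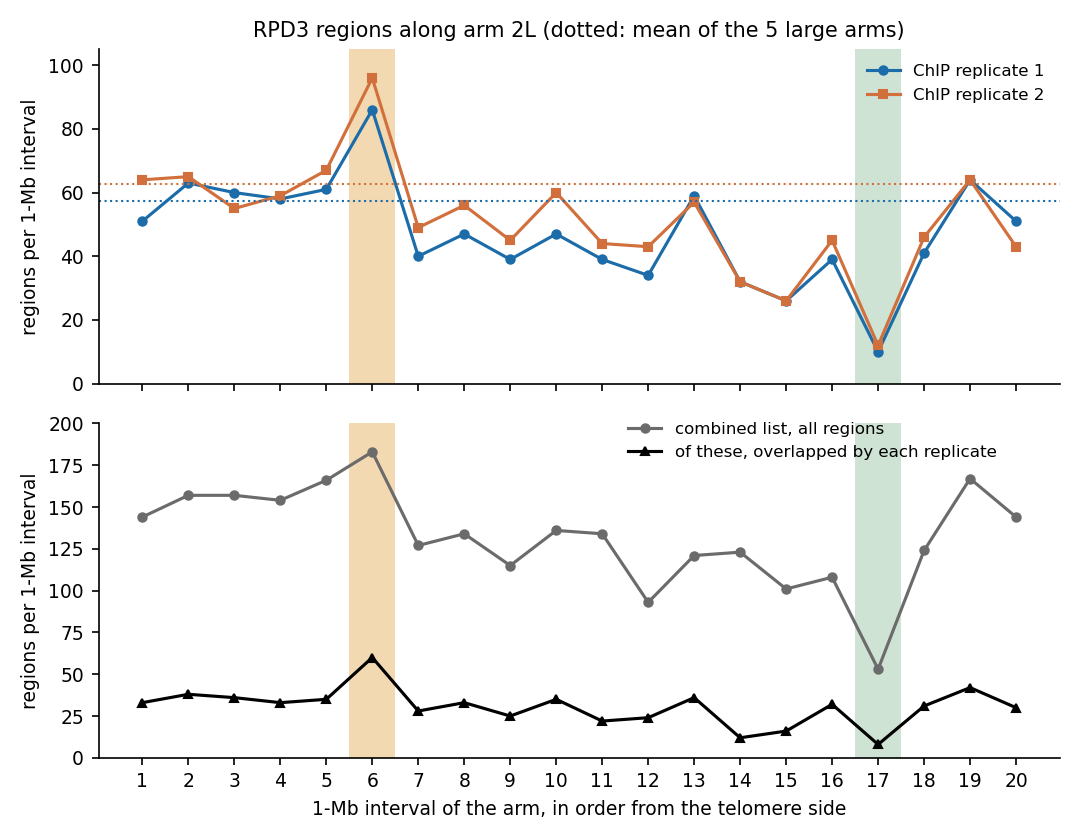
Number of RPD3 regions (vertical axis) in each of the 20 1-Mb intervals inside arm 2L (horizontal axis, interval 6 being 6 to 7 Mb and interval 17 being 17 to 18 Mb, both shaded). The upper panel has the replicates, with dotted lines at their means of 57.4 and 62.7 over all 117 intervals of the 5 large arms, and the lower panel has the combined list and the part of it overlapped by each replicate. All 4 curves peak in interval 6 and have their lowest point in interval 17.

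The order of the intervals can be read against the spread between replicates, which had a pooled SD of 4.85 regions over the 20 intervals. The mean of 6 to 7 Mb, 91.0 ± 7.07 (SD, n = 2), stood 27.0 regions above the next level, which 3 intervals (2 to 3, 5 to 6 and 19 to 20 Mb) shared at 64.0. At the other end, 17 to 18 Mb had a mean of 11.0 ± 1.41 (SD, n = 2) and lay 15.0 regions below 15 to 16 Mb. No other step between neighbours in the order exceeded 6.5 regions, and only 5 of the 19 steps were larger than the pooled SD. Most of the 18 other intervals therefore cannot be ranked against their neighbours in that order.

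Across the 20 intervals the counts of the replicates correlated with a Pearson coefficient of 0.95 (Spearman 0.89). Without the 2 singled-out intervals they were 0.88 and 0.84 over 18 intervals. At the finer scale of 200 windows of 100 kb the values were 0.89 and 0.87. These are descriptions of 1 pair of libraries, whose points share the arm and both libraries.

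Set against all large arms, an interval was called sparse where both replicates had at most their own mean divided by 1.5, and dense where both had at least 1.5 times that mean. By this rule 9.4% of all 117 intervals were sparse and 5.13% were dense. Inside 2L, 3 of 20 intervals (15.0%) were sparse, at 14 to 15, 15 to 16 and 17 to 18 Mb, and 0 of 20 were dense. With the intervals shifted by 500 kb, 6 of 19 were sparse inside 2L and 15.2% of 112 over the 5 arms, while 0 of 19 and 2.68% were dense. With the limit at 2 times the mean, 2 of 20 were sparse and 0 dense, beside 5.13% and 0.855% over the 5 arms. The interval at 6 to 7 Mb missed the call narrowly, with 1.497 times the mean in replicate 1 and 1.53 times in replicate 2. It was the densest part of 2L, yet 9 of the 117 intervals held more regions in replicate 1 and 6 did in replicate 2. The interval at 17 to 18 Mb had 0.174 and 0.192 times the mean, and 0 of the 117 intervals had fewer regions in either replicate. The intervals at 14 to 15 Mb (0.557 and 0.511 times) and 15 to 16 Mb (0.453 and 0.415 times) were the other sparse ones.

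Within the dense stretch the regions came in groups separated by thinner windows. The 100-kb window that opens the stretch held 13 regions in each replicate, and the window at 6.2 to 6.3 Mb held 1 and 4. The window at 6.4 to 6.5 Mb held 12 in each. The counts reached 13 and 15 at 6.7 to 6.8 Mb, dropped to 4 in each at 6.8 to 6.9 Mb and reached 15 and 16 in the last window. Both replicates therefore rose and fell together along the stretch. In the combined list every window of the stretch held between 13 and 23 regions, without such dips. In that list 60 of its 183 regions (32.8%) were overlapped by each replicate, the highest count and share of the 20 intervals. Such overlap depends on the replicate counts for which the stretch was singled out.

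In the replicates the sparse stretch held a single group, with 5 of 10 regions in replicate 1 and 5 of 12 in replicate 2, and scattered regions. In 4 of its 10 windows of 100 kb neither replicate had a region. Such windows were 10 of 200 (5.0%) inside 2L, the 4 of this stretch among them, and 2.61% of all 1189 windows of the 5 arms. Because the stretch was singled out for its low counts, part of this difference was fixed in advance. The window at 17.4 to 17.5 Mb held 5 regions in each replicate, while no other window of the stretch held more than 2 in either. These 5 regions lay within 30.6 kb in replicate 1, from 17471438 to 17502052, and within 31.5 kb in replicate 2, from 17471532 to 17502988. Each of the 5 had a partner in the other replicate.

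**Figure D2:**
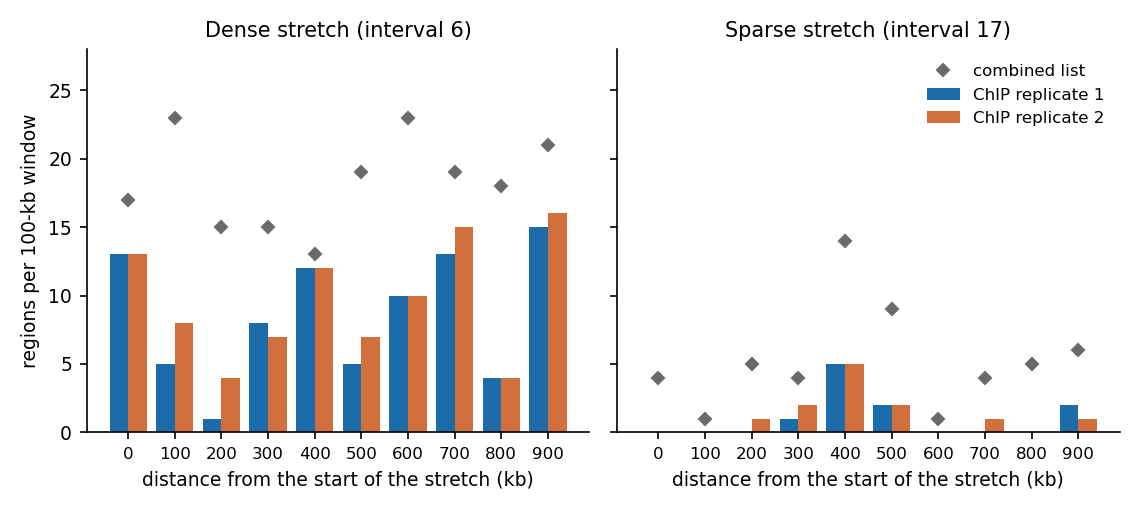
Regions per 100-kb window (vertical axis) against the distance from the start of the stretch in kb (horizontal axis) for the stretch at 6 to 7 Mb, left, and at 17 to 18 Mb, right. Bars are the ChIP replicates and diamonds the combined list. The windows of the dense stretch range from 1 to 16 regions in the replicates, and the sparse stretch has 1 window with 5 regions in each replicate.

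The group in the sparse stretch included strong regions. Scores are on a log2 scale, read as enrichment of ChIP over input, and are compared within a list only. The first region of the group, from 17471438 to 17474816 in replicate 1, scored 1.24 and ranked 26 among the 947 regions. Its partner in replicate 2, from 17471532 to 17474879, scored 1.09 and ranked 102 among 1028. The last, from 17499500 to 17502052 in replicate 1, scored 1.10 there (rank 77), and its partner from 17499582 to 17502988 scored 1.27 in replicate 2 (rank 34). The region from 17482266 to 17485729 scored 0.96 in replicate 1, and its partner scored 1.14 in replicate 2. The weakest pair of the stretch lay apart from it, with a score of 0.27 in replicate 1 (17962558 to 17964107, rank 946 of 947) and 0.61 in replicate 2 (17962522 to 17964525, rank 843 of 1028).

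Of the 10 regions of replicate 1 in this stretch, 8 (80.0%) had a partner, as did 8 of the 12 regions of replicate 2 (66.7%). The regions without one were narrow, at 1397 and 1548 bp in replicate 1 and from 1347 to 1636 bp in replicate 2. Their scores lay on either side of the list medians, at 0.76 and 0.79 in replicate 1 and from 0.64 to 0.84 in replicate 2.

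Widths and scores of the regions, which had no part in choosing the intervals, showed no such contrast. At 6 to 7 Mb replicate 1 had a median width of 1945 bp and replicate 2 one of 2044 bp, and at 17 to 18 Mb it was 2027 and 2166.5 bp. Across the other 18 intervals the medians lay between 1594 and 2089 bp in replicate 1 and between 1499.5 and 2179 bp in replicate 2, so both stretches fell inside the range of the rest. The median score was 0.78 and 0.80 in the dense stretch and 0.77 and 0.81 in the sparse one. The other 18 intervals had median scores from 0.70 to 0.82 and from 0.72 to 0.81. The number of regions was 8.6 times as high in the dense as in the sparse stretch in replicate 1 and 8.0 times in replicate 2 (8.30 ± 0.42, SD, n = 2), while neither median left the range of the other intervals. With 10 and 12 regions the medians of the sparse stretch are imprecise, and the difference in width or score between the stretches was not tested. In the combined list the same ratio was 3.45, from 183 and 53 regions.

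The combined list differed from the replicates in this respect. Its regions at 6 to 7 Mb had the largest median width of the 20 intervals, 1819 bp, and those at 17 to 18 Mb the smallest, 1332 bp. In the sparse stretch 73.6% of its regions had no counterpart in either replicate, the highest share of the 20 intervals, and in the dense stretch 43.7%, the lowest. These shares depend on the replicate counts for which the stretches were singled out, so their ranks are no separate result. Over the inside of 2L, combined-list regions overlapped by each replicate had a median width of 3405 bp. Those with no counterpart in either had 1257 bp. The ranks in width thus cannot be read as a separate result either, and widths at equal overlap were not compared.

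**Figure D3:**
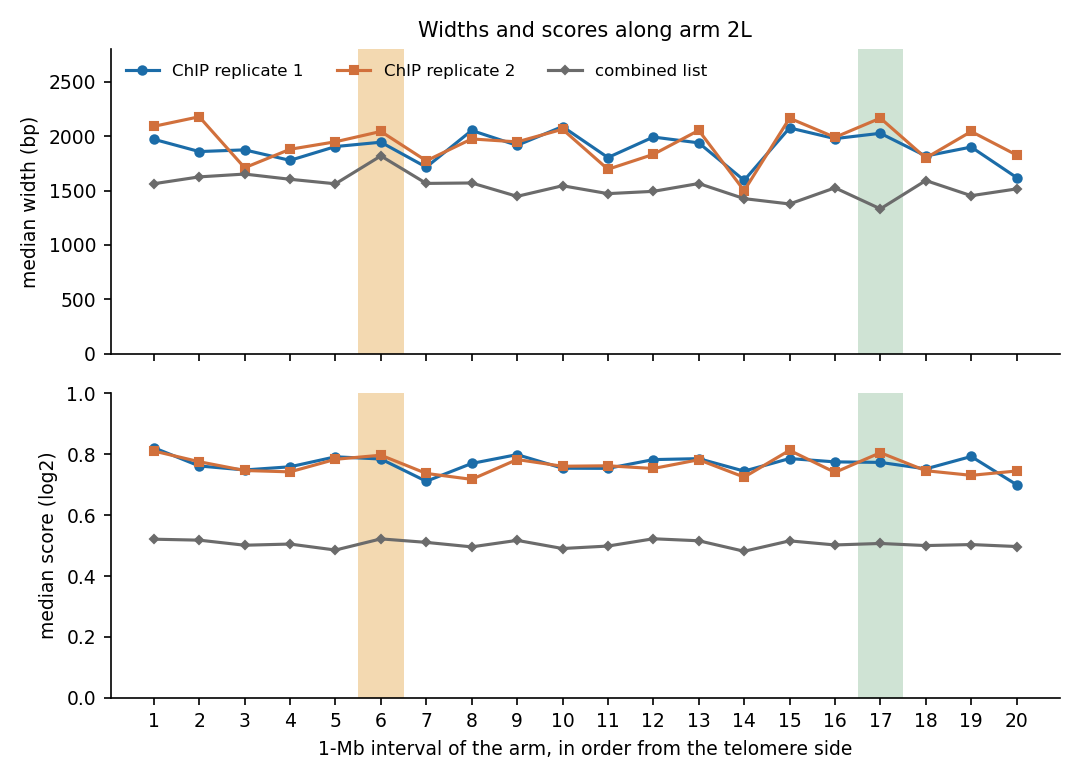
Median region width in bp (upper panel) and median score on the log2 scale (lower panel) in the 20 1-Mb intervals inside arm 2L, for both ChIP replicates and the combined list. Intervals 6 and 17, shaded, are the dense and the sparse stretch, and in the replicates both lie within the range of the other 18 intervals in width and in score.

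The strongest regions of the dense stretch were wide, and in each replicate they included the widest region of the stretch, 6070 bp in replicate 1 and 9031 bp in replicate 2. In replicate 1 the top 3 were 6721680 to 6725356 (score 1.46, rank 5 of 947), 6046254 to 6052323 (1.28, rank 19) and 6478443 to 6482643 (1.21, rank 29). Replicate 2 had 6043653 to 6052683 first (1.35, rank 20 of 1028), a region 9031 bp wide that contained the second one of replicate 1. It was followed there by 6917136 to 6923071 (1.33, rank 23) and 6721884 to 6725456 (1.29, rank 30). All of them had a partner in the other replicate.

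Regions scoring at least 1, a doubling over input, were 138 (14.6%) inside 2L in replicate 1 and 166 (16.1%) in replicate 2. In the whole lists the shares were 19.8% and 19.7%, and these include X, where 42.0% and 38.6% of regions scored at least 1. On the other autosomal arms, cut the same way, the shares were 12.4% to 13.4% in replicate 1 and 12.7% to 13.5% in replicate 2, below those of 2L. These differences between arms were not tested. At 6 to 7 Mb there were 13 and 16 such regions, or 15.1% and 16.7% of the interval, close to the share for the arm. At 17 to 18 Mb the shares were 20.0% and 33.3%, from 2 and 4 regions. Among the 20 intervals replicate 1 had a lowest share of 3.85% and a highest of 25.6%, while replicate 2 had 6.25% and 33.3%. The replicates were farthest apart at 15 to 16 Mb, with 3.85% and 30.8%, from 1 and 8 regions of 26 in each.

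Over the whole inside of 2L the widths were skewed to the right. Replicate 1 had a shortest region of 1301 bp, quartiles at 1508.5, 1879 and 2553 bp, and a widest region of 10834 bp. Replicate 2 also began at 1301 bp, with quartiles at 1515, 1947.5 and 2755.75 bp and a widest region of 15349 bp. In both, the narrow end was cut off at the same value. Regions of at least 6 kb numbered 17 and 32. In the combined list the shortest was 1001 bp and the median 1548 bp.

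Scores ran from 0.24 to 1.61 in replicate 1, with quartiles at 0.67, 0.77 and 0.91. Those of replicate 2 ran from 0.21 to 1.87, with quartiles at 0.65, 0.77 and 0.91. A median score of 0.77 is a 1.71-fold enrichment in replicate 1 and 1.70-fold in replicate 2. The middle of the distribution was thus nearly the same in the replicates. The lowest region of replicate 1, from 5270587 to 5272067 with a score of 0.24, overlapped an interval that the combined list marks as depleted. Wider regions had higher scores, with a Spearman correlation of width and score of 0.57 over the 947 regions of replicate 1 and 0.60 over the 1028 of replicate 2. Regions are not independent replicates, and this is a description of each list.

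Spacing between regions was uneven. The median gap between the end of a region and the start of the next was 6.06 kb in replicate 1 and 5.88 kb in replicate 2, a mean of 5.97 ± 0.13 kb (SD, n = 2). The mean gap was 18.8 and 16.97 kb. The coefficient of variation of the gaps was 1.94 in replicate 1, where the other 4 arms had 1.499 to 1.85, and 1.79 in replicate 2, where they had 1.56 to 1.75. In the combined list it was 1.49, within the 1.46 to 1.52 of the other arms. Gaps under 1 kb made up 14.8% and 16.9% of all gaps. Gaps over 50 kb were 91 of 946 (9.62%) in replicate 1 and 85 of 1027 (8.28%) in replicate 2, yet they held 52.6% and 48.7% of the length between regions. On the other 4 arms 3.25% to 8.30% of gaps exceeded 50 kb in replicate 1 and 3.67% to 6.57% in replicate 2. In each replicate the longest gap reached into the sparse stretch, which was singled out for its low counts. The gap measures of 2L in the replicates are therefore not separate from those low counts. Gap measures without that stretch were not compared, and the differences in gap measures between arms were not tested.

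**Figure D4:**
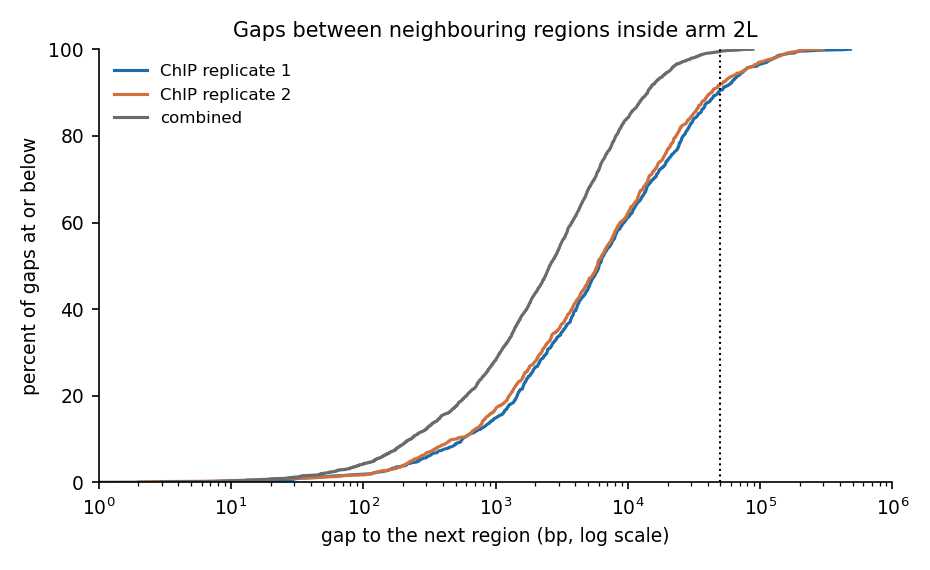
Percent of gaps (vertical axis) at or below a given length in bp (horizontal axis, log scale) between neighbouring regions inside arm 2L, for the ChIP replicates and the combined list. The dotted line marks 50 kb, a length that 9.62% of gaps exceed in replicate 1 and 8.28% in replicate 2. Gaps of 0 bp are drawn at 1 bp.

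The longest gap of replicate 1 ran for 480.4 kb, from 16902571 to 17382977. In replicate 2 a region from 17202006 to 17203352, with a score of 0.80 and no partner, broke the same stretch, so its longest gap there was 299.7 kb, from 16902346 to 17202005. The second gap of replicate 1 was 418.9 kb, from 17543621 to 17962557. On the other 4 arms the longest gap was 199.6 to 389.5 kb in replicate 1 and 167.7 to 353.3 kb in replicate 2. In the combined list it was 65.5 to 120.6 kb there and 88.1 kb on 2L. The longest gap of 2L thus exceeded that of every other arm in replicate 1 only. That gap reached into the stretch singled out for its low counts, so its length is no separate result. Counting regions of either replicate, the 5 longest empty stretches inside 2L measured 299, 208, 193, 183 and 170 kb. Of these, 4 lay wholly or mostly between 17 and 18 Mb, or reached into it from 16902571, and the other lay from 3878508 to 4061981. Each still held combined-list regions, from 5 to 10 of them, which covered 2.76% to 5.91% of its length. Their median scores ran from 0.442 to 0.52, beside a combined-list median of 0.51 and a lower quartile of 0.447 inside 2L. The lowest, below that quartile, came from the 5 regions at 17559858 to 17768102.

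Neighbouring windows were more alike than windows farther apart, though the fall with distance was not smooth in the replicates. For the 100-kb windows the Pearson correlation of a window with the next was 0.31 in replicate 1 and 0.32 in replicate 2. At a distance of 200 kb it was 0.09 in each, at 500 kb it was 0.13 and 0.21, at 1000 kb 0.01 and 0.03, and at 2000 kb 0.07 and 0.10. Those of the combined list at these 5 distances were 0.42, 0.30, 0.14, 0.12 and -0.01. These values describe counts along 1 arm.

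Regions that recurred were joined into runs where they lay close together. Inside 2L, 609 of the 2641 combined-list regions (23.1%) met a region of each replicate and are called shared regions below. The same share over the whole combined list was 23.1%. Joining shared regions whose gaps were at most 5 kb gave 363 runs, and 381 of the 609 (62.6%) lay in the 135 runs that had at least 2 members. Runs were not formed on the other arms, so whether this share is particular to 2L was not tested. The longest run spanned 62.2 kb, from 1125016 to 1187194, with 7 shared regions that filled 89.96% of it. Within it were 13 replicate 1 and 11 replicate 2 regions. Then came 19023262 to 19067961 (44.7 kb, 6 shared regions) and 7024710 to 7066691 (42.0 kb, 8 shared regions). The last of the 5 longest both lay in the dense stretch, from 6034847 to 6073881 (39.0 kb) and from 6466210 to 6500179 (34.0 kb), with 4 shared regions each.

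The strongest shared regions were ranked by the mean percent rank of their best replicate scores. The first, from 11996505 to 12013468, had best scores of 1.61 in replicate 1 and 1.87 in replicate 2, or 3.06-fold and 3.65-fold. Second was 5976917 to 5985132, 8.22 kb wide, with 1.47 and 1.49. The region from 5316770 to 5328656 followed with 1.48 and 1.41, tied in rank with 14352588 to 14356374, which had 1.44 and 1.43. The next were 3464435 to 3467582 (1.31 and 1.41), 8401642 to 8405791 (1.36 in each) and 7825339 to 7829780 (1.32 and 1.38). Positions 1074148 to 1079647, 2234142 to 2238416 and 5798747 to 5804340 shared the last rank, with scores of 1.25 to 1.29 in replicate 1 and 1.40 to 1.41 in replicate 2. The best scores of a region differed between the replicates by an SD of at most 0.18 (n = 2), but a ranking on both replicates favours such agreement. Of these 10 regions 3 lay at 5 to 6 Mb, which had 35 shared regions, and 0 at 6 to 7 Mb, which had 60. Their width ranks ran from 4 to 338 of 609.

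The widest shared regions were each composed of several replicate regions. They ran from 1155285 to 1174367 (19.1 kb), from 4965283 to 4982811 (17.5 kb), from 19570826 to 19588324 (17.5 kb), from 11996505 to 12013468 (16.96 kb) and from 6471166 to 6487279 (16.1 kb). Each held between 2 and 4 regions of either replicate. The region at 11996505 was also the strongest, whereas the other 4 had score ranks of 33 to 130.

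How well the replicates found the same places was compared region by region. Of the regions of replicate 1 inside 2L, 72.3% (685 of 947) shared at least 1 bp with some replicate 2 region, against 72.7% over the whole list. The reverse share was 64.3% (661 of 1028), against 64.6% over the whole list. The shares inside 2L were thus near those of the lists at large. The midpoints of partners lay a median of 174 bp apart, and 73.1% of the 685 pairs were within 500 bp. Regions of replicate 2 were a median of 1.08 times as wide as their partners in replicate 1. A replicate 2 region that was the partner of several replicate 1 regions entered once for each. Wide replicate 2 regions therefore recur among the 685 pairs, which raises this ratio and leaves the pairs not distinct. The overlap took a median of 97.3% of the replicate 1 region and 88.9% of the replicate 2 region. Scores of the 685 pairs correlated with a Spearman coefficient of 0.70 (Pearson 0.74), and widths with 0.62 (Pearson 0.56).

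Recurrence rose steeply with width. In the narrowest quartile of replicate 1, up to 1508 bp, 38.8% of regions had a partner, and in the next 59.5%. The upper quartiles reached 91.9% and 99.2%. In replicate 2 the shares from narrow to wide were 31.1%, 41.6%, 87.2% and 97.3%. By score, replicate 1 had shares of 65.4%, 63.7%, 67.4% and 92.8% from the lowest to the top quartile, so only the top one stood apart. In replicate 2 the shares were 47.1%, 47.9%, 71.6% and 90.7%, and the third quartile was already above the lower ones. A wider region is overlapped more readily whatever it contains, and this was not subtracted.

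**Figure D5:**
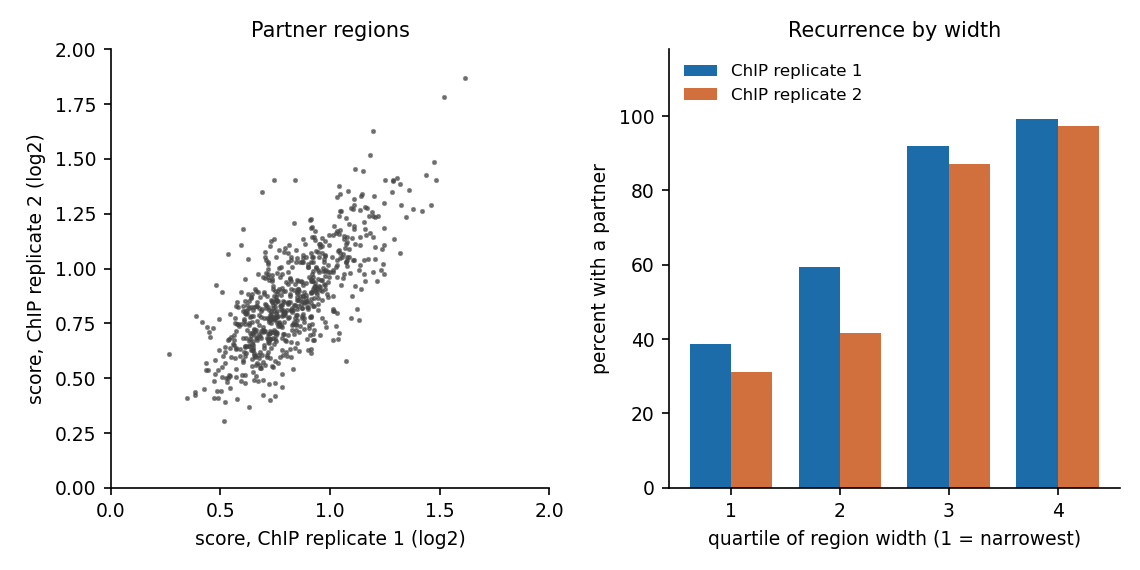
Left, score of each of the 685 replicate 1 regions with a partner (horizontal axis, log2) against the score of the partner with the largest overlap in replicate 2 (vertical axis, log2). Right, percent of regions with a partner (vertical axis) by quartile of width within each replicate (horizontal axis), which rises from 38.8% to 99.2% in replicate 1 and, in replicate 2, from 31.1% to 97.3%.

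Along the arm the relation of the share with a partner to density differed between the replicates. Over the 20 intervals its Spearman correlation with the region count was -0.12 in replicate 1 and 0.26 in replicate 2. Without the intervals at 6 to 7 and 17 to 18 Mb it was -0.05 and 0.31 (Pearson 0.15 and 0.41). The lowest shares stood at 14 to 15 Mb, an interval noticed after its values were seen, with 40.6% (13 of 32) in replicate 1 and 37.5% (12 of 32) in replicate 2. In the other 19 intervals it was at least 56.9% and 57.1%. The same interval had the narrowest regions of the arm in both replicates, with medians of 1594 and 1499.5 bp. Only 12 of its 123 combined-list regions (9.76%) were shared. The part of width in this low recurrence was not tested.

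At the limits of the stretch, the first region inside 1 Mb was 1006499 to 1008703 in replicate 1 (score 1.04), and 1006761 to 1008764 in replicate 2 (0.70). Just outside lay 942241 to 944015 (0.66) in replicate 1 and 994020 to 995480 (0.86) in replicate 2. The last regions inside 21 Mb were 20953245 to 20954834 (0.66) in replicate 1 and 20921673 to 20923697 (0.67) in replicate 2. The next ones outside were 21050917 to 21052489 (0.51) and 21009378 to 21010982 (0.60). In the combined list the regions at the limits were 994037 to 995766 (0.47) and 1006503 to 1008771 (0.73) at 1 Mb, and 20993285 to 20994404 (0.61) and 21009058 to 21010917 (0.43) at 21 Mb.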

How the data were processed

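Enriched regions of 2 RPD3 ChIP libraries and 1 list of the whole series were used as deposited by the authors. Reads were aligned with Bowtie 0.12.7, per the submitters' processing notes, and positions refer to release 5 of FlyBase, per the file headers. For the region caller, its threshold, the library depths and the origin of the combined list, nothing is given in the sources used here. The score of each region, as deposited by the authors, was taken as a log2 ratio: all scores of replicates 1 and 2 inside 2L, and 99.8% in the combined list, equalled log2 of a whole-number ratio (denominator up to 3000, relative tolerance 1e-10) times a value fixed for that list. Starts and ends, the other deposited columns used here, gave widths and gaps. There were 0 columns of other samples.

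Region midpoints were counted in 1-Mb intervals and 100-kb windows. Density was compared between arms by quasi-Poisson regression, and everything else is description. The regression was tried beforehand on 500 simulated sets with the spread of replicate 1. With a true ratio of 1.0, 6.0% of the sets gave a regression p under 0.05. Simulated intervals were independent and the other arms had a common mean. In the data neighbours are correlated and those arms differ, so the simulation cannot check the p-values in these respects. The gene table at hand is of release 6 and was not used for positions. Partners overlap by at least 1 bp, and where several did, the largest overlap was taken. Regions were named by a rule: the 10 strongest and 5 widest shared regions, the 5 longest empty stretches and runs, the regions of the sparse stretch, the 3 strongest of the dense one, and those at the limits. The members, lists and rules were chosen with earlier results of these data known. The alternatives were another model, interval size and phase, merging within 200 bp, higher scores, stricter overlap, leaving out each replicate or arm, and, chosen after seeing the data, leaving out 17 to 18 Mb. Fits used statsmodels 0.14.6 with scipy 1.17.1, tables pandas 2.3.3 and numpy 2.4.6, and plots matplotlib 3.10.9, under Python 3.11.15.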

Additional observations from a re-analysis of the deposited data

How the results depend on the processing

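Of 56 alternative values, 48 kept their direction and call or stayed within the set range. Some of these outcomes were fixed in advance. For the ratio of the stretches, width, score and gap the range was the SD of the replicates. Each replicate always lies within it, so leaving out the other could not move these values. Another model or 500-kb intervals left the density ratio unchanged by construction, and only its p could move. The lower density of 2L kept its call in all 30 of its alternatives, with ratios from 0.66 to 0.83 in replicate 1, 0.69 to 0.81 in replicate 2 and 0.66 to 0.86 in the combined list. The lowest ratio of each list came from keeping scores at or above the list median. That median was taken over all arms, and X scored higher (median 0.96 in replicate 1, against 0.77 on 2L). This setting therefore kept more of the X regions by construction. The other alternatives gave ratios of at least 0.76, 0.75 and 0.80. The highest adjusted p of each list came without arm 2R (quasi-Poisson regression, n = 84 intervals, adjusted p = 0.026, 0.022 and 0.019). The ratio of 6 to 7 Mb over 17 to 18 Mb fell from 8.30 to 3.45 in the combined list. Leaving out each replicate gave 8.00 to 8.60 for it, 947 to 1028 regions, median widths of 1879 to 1947.5 bp, median scores of 0.77 in both and median gaps of 5.88 to 6.06 kb. By construction, keeping scores at or above the list median lowered the mean number of regions from 987.5 to 428. The mean share with a partner was 68.3% with an overlap of 1 bp, 83.5% with those scores, 59.8% where the overlap had to be at least 50% of each region and 50.8% where midpoints had to lie within 500 bp. The median score rose from 0.77 to 0.81 among regions with a partner, and the median gap from 5.97 to 6.33 kb on merging within 200 bp. Sparse intervals numbered 3 of 20 (9.4% over all arms), 2 (15 to 16 and 17 to 18 Mb) with the limit at 2 times the mean (5.13% over all arms), and 6 of 19 with intervals shifted by 500 kb (15.2% over all arms). Under these alternatives 0 were dense inside 2L, against 0.855% and 2.68% over all arms. The cause of these changes was not tested except where construction gives it. No paired analysis was possible because the input libraries, which share replicate numbers with the ChIP libraries, had no values here. Unknown depth limits every count and covered length.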
